A study of Mus musculus with 30 samples.

Results

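The gene group described here comprises 10 genes whose products build the matrix around fibroblasts: the small leucine-rich proteoglycans Dcn (decorin), Bgn (biglycan), Aspn (asporin), Lum (lumican), Fmod (fibromodulin), Prelp and Ogn (osteoglycin), the large proteoglycan Vcan (versican), and the glycoproteins Tnc (tenascin-C) and Tnxb (tenascin-X). They were listed by name, with earlier results of these data known, and are 10 of the 55487 genes with a count in the files. Each symbol belonged to 1 Ensembl gene. All were compared across the 8 combinations of cell fraction and treatment.

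The data are 30 bulk RNA-sequencing libraries from mouse lung organoid cultures. Wild type C57BL/6J mice over 8 weeks of age, male and female, gave primary CD31-CD45-Epcam+ lung cells, which were mixed in Matrigel with CCL206, a mouse lung fibroblast line whose division had been stopped with mitomycin C. Cultures of 4 mice were kept for 72 hours with vehicle, an exacerbation cocktail (EC), an idiopathic pulmonary fibrosis cocktail (IPFc) or 2 ng/ml TGF-β. EC held IL-1β, IL-6, TNF-α and KC, which the study used for mouse cells in place of IL-8. IPFc held TGF-β and TNFα, the interleukins IL-1β, IL-13, IL-33, IL-4 and IL-8, and in addition TSLP and CCL2. The cells were then separated with Epcam microbeads into Epcam- cells, called fibroblast libraries here, and Epcam+ cells, called epithelial libraries. Fibroblast libraries numbered 3 for vehicle (mice 1, 3 and 4) and 4 for each treatment, and epithelial libraries numbered 4 for vehicle, EC and IPFc and 3 for TGF-β (mice 2, 3 and 4). The fibroblast vehicle library of mouse 2 and the epithelial TGF-β library of mouse 1 were not analysed here. The fibroblasts of every culture came from a single line that could not divide, so the mouse number marks the epithelial donor and the culture, and p-values measure the spread between these cultures. TGF-β was part of IPFc as well as a treatment of its own, and the 3 treatments were set against the same vehicle libraries.

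Libraries held 5113828 to 20317181 counted reads, with the lowest total in the fibroblast EC library of mouse 1. Of 21 fibroblast markers, 20 were above 1 CPM (reads of a gene scaled to the library total) in every fibroblast vehicle library. The exception was Thy1, which had no read in the fibroblast vehicle, EC and TGF-β libraries. Of 12 markers of alveolar and adventitial fibroblasts of the intact lung, 6 were above 1 CPM in every fibroblast vehicle library and Tcf21, Wnt2 and Gucy1a1 had no read there. These 12 summed to 128 to 130 CPM in fibroblast and 192 to 200 CPM in epithelial vehicle libraries, and of 7 tested 1 was called higher and 5 lower in fibroblast libraries under TGF-β. Immune markers summed to 7.12 to 20.5 CPM and endothelial markers to 1.53 to 12.5 CPM across all libraries. Mesothelial markers were higher, at 1070 to 1252.5 CPM in epithelial and 180 to 301 CPM in fibroblast vehicle libraries. In fibroblast libraries they summed to 279 to 545 CPM under EC and 97.9 to 174 CPM under TGF-β. Of these 5 markers, 2 reached 1 CPM in every epithelial vehicle library. Markers of each fraction were also read in libraries of the other. Cells left from the other fraction and sorted cells that expressed these genes themselves cannot be told apart here. In a fibroblast library, the median epithelial marker reached 15 to 27.9% of its level in the partner epithelial library under vehicle, 38.9 to 52.3% under EC, 11.9 to 29.9% under IPFc and 1.02 to 3.97% under TGF-β. In an epithelial library, the median fibroblast marker reached 4.77 to 10.1% of its level in the partner under vehicle, 5.59 to 17.5% under EC, 4.65 to 16.5% under IPFc and 24.1 to 29.2% under TGF-β. These shares moved with the treatments and are given again beside the results that they touch. In bulk libraries, fewer cells of a type and less RNA per cell cannot be told apart.

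**Figure D1:**
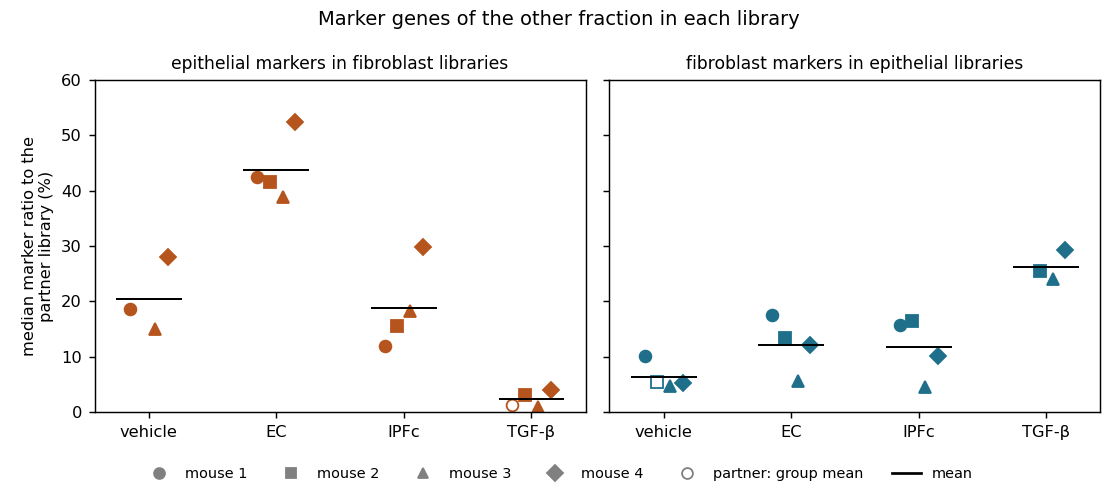
Median level of the other fraction's marker genes in each library, as percent of the partner library of the same mouse and treatment (y axis), by treatment (x axis). Points are libraries, bars are group means and open points used the group mean as partner. Epithelial markers were highest in fibroblast libraries under EC, and fibroblast markers were highest in epithelial libraries under TGF-β.

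Small leucine-rich proteoglycans are short proteins built of leucine-rich repeats that bind collagen and set the spacing and width of its fibrils. Most carry chondroitin, dermatan or keratan sulfate chains, and several, decorin and biglycan among them, also bind growth factors such as TGF-β. Versican is a large chondroitin sulfate proteoglycan that binds hyaluronan and makes the loose, hydrated matrix of developing and injured lung. Tenascins are large glycoproteins of the matrix. Tenascin-C appears in wounds and fibrosis and is a known target of TGF-β, whereas tenascin-X lies along collagen fibrils of resting connective tissue.

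Several of the genes lie side by side in the mouse genome. In the RefSeq annotation of GRCm38.p6, Dcn (chr10:97479500-97518163) and Lum (chr10:97565501-97572703) were 47.3 kb apart with no gene between them. Prelp (chr1:133910304-133930102) and Fmod (chr1:134037254-134048280) were 107.2 kb apart with Bmncr and Gm18970 between them. Aspn (chr13:49544443-49567565) and Ogn (chr13:49608015-49624501) were 40.4 kb apart with Omd between them. Bgn (chrX:73483601-73495936), Vcan (chr13:89655309-89743027), Tnc (chr4:63959785-64047015) and Tnxb (chr17:34660453-34719815) stood apart from the others. Both Aspn and Ogn lie within the span of Cenpp, and Vcan, Tnc and Tnxb also overlap another annotated gene. How reads in shared stretches were counted is not given in the sources used here, so the counts of these 5 genes carry that uncertainty.

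In fibroblast libraries under vehicle, the genes spanned a wide range of levels. Compared per kilobase of transcript, Bgn led with 879 ± 121 CPM per kb (SD, n = 3), followed by Vcan with 47.9 ± 9.32 and Dcn with 25.3 ± 4.51 CPM per kb. Lum (6.82 ± 1.15 CPM per kb) and Tnc (5.16 ± 1.16 CPM per kb) came next and did not differ beyond their spread. Tnxb (3.34 ± 0.472 CPM per kb), Ogn (2.48 ± 1.26 CPM per kb) and Prelp (1.76 ± 0.579 CPM per kb) formed the lower end, where Ogn overlapped both neighbours. Aspn and Fmod were at or near 0. Aspn had 5 reads in all 30 libraries together, never more than 1 in a library, and was not tested. The order under TGF-β differed at several places. Bgn still led with 1893 ± 303 CPM per kb (SD, n = 4), Tnc (19.0 ± 1.79 CPM per kb) stood next to Dcn (25.2 ± 3.39 CPM per kb), and Tnxb (0.202 ± 0.0877 CPM per kb) lay beside Fmod (0.200 ± 0.117 CPM per kb).

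TGF-β changed 5 of the 9 tested genes in fibroblast libraries, against 19.2% of all genes tested. Bgn, Fmod and Tnc rose, and Prelp and Tnxb fell. Fmod passed the filter on low counts only through the TGF-β libraries, so it adds nothing to this count. EC changed 4 of 9, against 7.11% of all genes, with Dcn higher and Bgn, Ogn and Tnxb lower. IPFc changed 1 of 9, against 0.449% of all genes, and this was the fall of Tnxb. Tnxb was thus lower under each of the 3 treatments, and Bgn moved up under TGF-β and down under EC. Genes were called at an adjusted p under 0.05 (edgeR quasi-likelihood test with the mouse as a block, Benjamini-Hochberg over all genes). The median log2 fold change of the 8 tested genes other than Fmod, which had no read under vehicle, was -0.51 under EC, 0.11 under IPFc and -0.18 under TGF-β, beside medians of -0.02, -0.00 and -0.02 over all genes. With Fmod included, at its lower bound, the TGF-β median was 0.04.

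**Figure D2:**
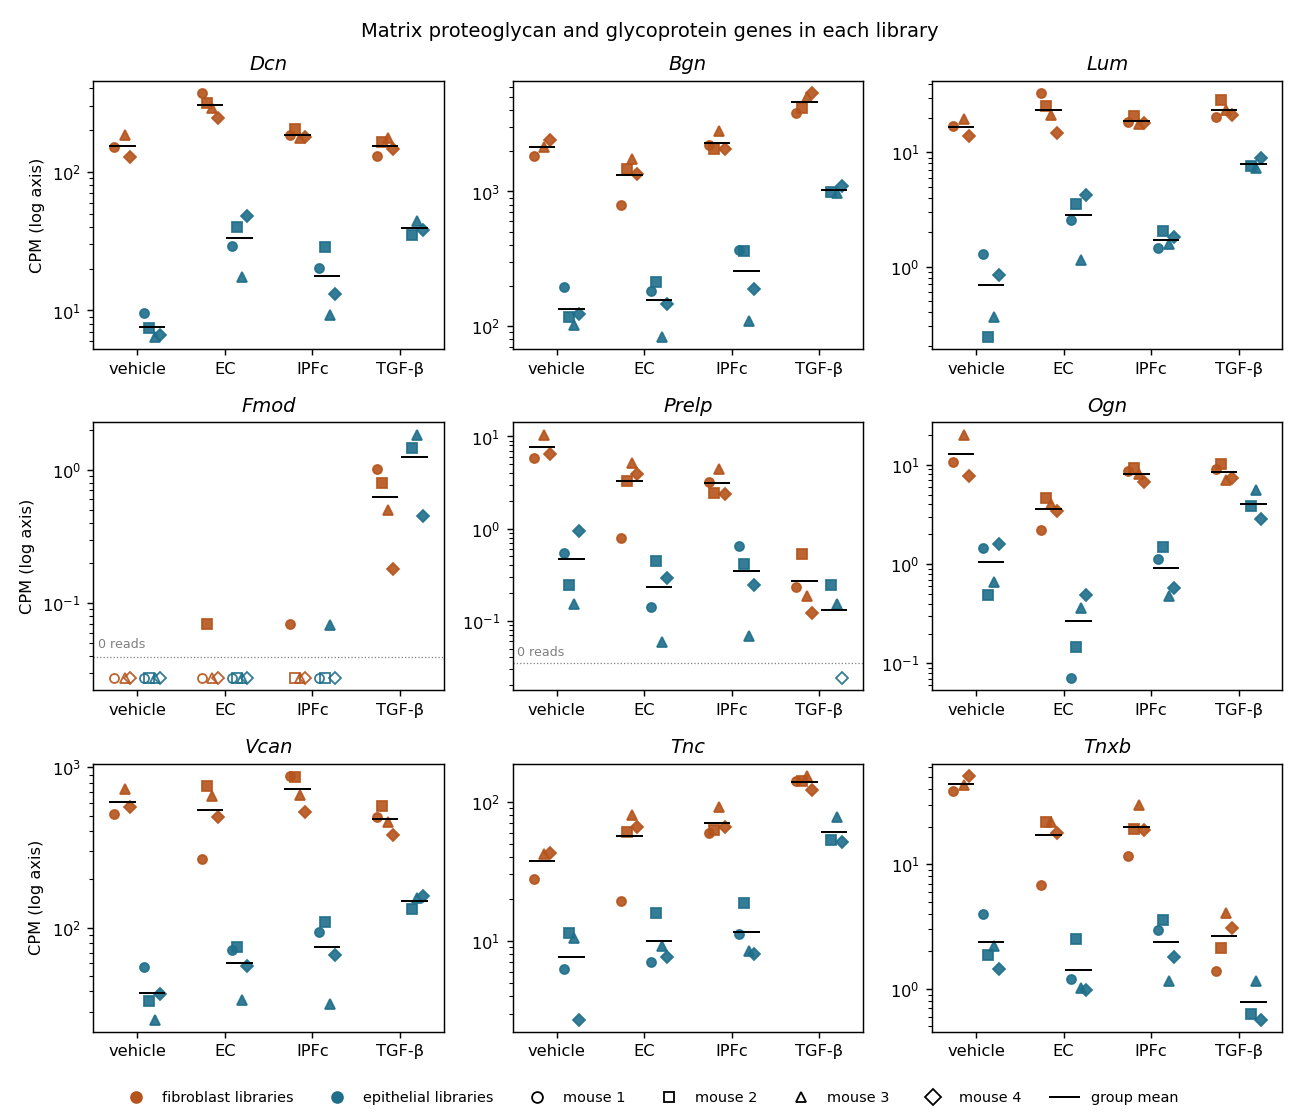
CPM of 9 genes in each library (y axis, log scale) by treatment (x axis), with fibroblast and epithelial libraries in different colours, a symbol for each mouse, bars at group means and open symbols for libraries with 0 reads. Fibroblast Tnxb drops from 38.6 to 51.1 CPM under vehicle to 1.41 to 4.10 CPM under TGF-β, and Fmod appears under TGF-β in both fractions.

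The first class of small leucine-rich proteoglycans was represented by Dcn, Bgn and Aspn. Dcn, which binds collagen fibrils and TGF-β, measured 151, 183 and 128 CPM in the fibroblast vehicle libraries of mice 1, 3 and 4. It measured 369, 314, 288 and 246 CPM under EC in mice 1 to 4. Every EC library lay above every vehicle library, and the log2 fold change was 0.95 (SE 0.15, adjusted p = 0.00129, higher in 3 of 3 paired mice, edgeR). Dcn stood at 185, 202, 177 and 178 CPM under IPFc and at 129, 164, 176 and 145 CPM under TGF-β. Both groups overlapped the vehicle libraries, with log2 fold changes of 0.25 (SE 0.15, adjusted p = 0.931) and 0.04 (SE 0.15, adjusted p = 0.910).

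Bgn, a proteoglycan that binds collagen and activates innate receptors when set free, was the most abundant of the 10 genes. It measured 1826, 2143 and 2413 CPM under vehicle and 3811, 4129, 5039 and 5357 CPM under TGF-β. The groups did not overlap, and Bgn was 2.26-fold higher (log2 1.18, SE 0.17, adjusted p = 6.41e-05, edgeR). Under EC it measured 796, 1467, 1738 and 1338 CPM, all below the lowest vehicle library. The log2 fold change was -0.70 (SE 0.17, adjusted p = 0.0184, lower in 3 of 3 mice). The EC value rested on few cultures, since the adjusted p was 0.0861 without mouse 3 and 0.204 without mouse 4, and it was 0.102 without the block by mouse. Under IPFc, Bgn stood at 2214, 2061, 2789 and 2063 CPM and overlapped vehicle (log2 0.11, SE 0.17, adjusted p = 1).

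The second class comprised Lum, Fmod and Prelp, which bind collagen and have distinct tissue distributions. Lum, the keratan sulfate proteoglycan first known from the cornea, measured 17, 19.5 and 13.9 CPM under vehicle, 33.0, 25.4, 21.1 and 14.9 CPM under EC, and 18.5, 20.6, 17.6 and 18.3 CPM under IPFc. Under TGF-β it measured 20.4, 28.7, 23.5 and 21.3 CPM, just above the highest vehicle library. Its log2 fold changes of 0.38 under EC (SE 0.19, adjusted p = 0.263), 0.10 under IPFc (SE 0.19, adjusted p = 1) and 0.49 under TGF-β (SE 0.19, adjusted p = 0.0895) did not pass the test. Dcn and Lum are neighbours on chromosome 10, and only Dcn was called under EC. The difference between their responses was not tested.

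Fmod, a collagen-binding proteoglycan that also binds TGF-β, had no read in the 3 fibroblast vehicle libraries, which allows up to 0.0699 CPM over the group (3 counts, counting error only). It had 1 read in all under EC and 1 read in all under IPFc. Under TGF-β it had 13, 12, 8 and 3 reads, or 1.02, 0.802, 0.496 and 0.181 CPM. All 4 TGF-β libraries lay above the vehicle libraries, the mean was at least 8.92-fold higher than the vehicle limit, and the adjusted p was 0.00422 (edgeR). Fmod passed the filter on low counts only through the TGF-β libraries, which held 36 of its 38 fibroblast reads, so its call adds nothing to the count of changed genes, which was 4 of 8 without it. Without mouse 1, whose library held the most Fmod reads, the adjusted p was 0.0664.

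Prelp, which links basement membranes to the collagen matrix below them, moved the opposite way. It measured 5.86, 10.5 and 6.48 CPM under vehicle and 0.234, 0.534, 0.186 and 0.121 CPM under TGF-β, from 2 to 8 reads a library. The groups were far apart, with a log2 fold change of -4.73 (SE 0.46, adjusted p = 7.44e-07), a level 26.5-fold lower. Prelp measured 0.800, 3.30, 5.16 and 3.96 CPM under EC and 3.24, 2.44, 4.45 and 2.38 CPM under IPFc, below every vehicle library in both cases. The log2 fold changes there, -1.15 (SE 0.35, adjusted p = 0.0610) and -1.26 (SE 0.35, adjusted p = 0.208), did not pass the test.

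Ogn, the third class, is a proteoglycan that shapes collagen fibrils and was first isolated from bone. It measured 10.6, 20.2 and 7.74 CPM under vehicle and 2.20, 4.63, 4.06 and 3.47 CPM under EC. No EC library reached the vehicle range, and the log2 fold change was -1.83 (SE 0.26, adjusted p = 0.000640, lower in 3 of 3 mice). Under IPFc (8.65, 9.24, 8 and 6.68 CPM) and TGF-β (8.98, 10.2, 7.01 and 7.37 CPM) it overlapped vehicle, with log2 fold changes of -0.69 (SE 0.25, adjusted p = 0.485) and -0.58 (SE 0.25, adjusted p = 0.124).

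Vcan, the hyaluronan-binding proteoglycan, was not called under any of the 3 treatments. It measured 510, 736 and 566 CPM under vehicle, 268, 759, 659 and 489 CPM under EC, 881, 866, 673 and 526 CPM under IPFc, and 488, 573, 455 and 376 CPM under TGF-β. Each treated group overlapped vehicle. The log2 fold changes were -0.31 under EC (SE 0.23, adjusted p = 0.454), 0.18 under IPFc (SE 0.23, adjusted p = 1) and -0.40 under TGF-β (SE 0.23, adjusted p = 0.261).

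The tenascins diverged. Tnc measured 28.0, 42.0 and 43.1 CPM under vehicle and 142, 140, 153 and 121 CPM under TGF-β. Every TGF-β library was far above vehicle, by 3.96-fold (log2 1.98, SE 0.26, adjusted p = 2.11e-05, edgeR). Tnc also stood at 59.8, 63.0, 91.4 and 65.6 CPM under IPFc, above every vehicle library, yet its log2 fold change of 0.89 (SE 0.25) had an adjusted p of 0.223. Under EC it measured 19.4, 60.9, 80.2 and 65.7 CPM. Mouse 1 lay below the vehicle range and the other 3 mice above it (log2 0.53, SE 0.25, adjusted p = 0.227).

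Tnxb, the tenascin of resting connective tissue whose loss causes lax skin and joints, measured 38.6, 43.7 and 51.1 CPM under vehicle. It measured 6.80, 21.9, 21.8 and 18.0 CPM under EC, 11.6, 19.3, 29.7 and 18.9 CPM under IPFc, and 1.41, 2.14, 4.10 and 3.08 CPM under TGF-β. No treated library reached the vehicle range, and the TGF-β libraries lay below all others. Tnxb was 17.3-fold lower under TGF-β (log2 -4.11, SE 0.25, adjusted p = 3.89e-09). The log2 fold change was -1.51 under EC (SE 0.23, adjusted p = 0.000854) and -1.30 under IPFc (SE 0.22, adjusted p = 0.00915), each lower in 3 of 3 mice. The IPFc call depended on mouse 4, without which the adjusted p was 0.340, and on the block by mouse, without which it was 0.407.

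The fibroblast EC library of mouse 1, the shallowest of all, bore on these counts. It held the lowest Bgn, Prelp, Ogn, Vcan, Tnc and Tnxb values of its group and the highest Dcn and Lum values. Leaving it out, a choice made after seeing the data, gave 5 called genes under EC, 3 under IPFc and 7 under TGF-β. Calls rose over all genes as well, from 1284 to 1983 under EC, 81 to 263 under IPFc and 3457 to 5005 under TGF-β. Tnc joined under EC (log2 0.84, adjusted p = 0.000212), Prelp (adjusted p = 0.0135) and Tnc (adjusted p = 9.37e-05) joined under IPFc, and Lum (adjusted p = 0.00765) and Vcan (log2 -0.36, adjusted p = 0.0373) joined under TGF-β.

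Epithelial marker shares also differed between the fibroblast groups, as given above. Of 21 epithelial markers, 10 were called higher and 0 lower in fibroblast libraries under EC, and 21 of 21 were called lower under TGF-β. Of 20 tested fibroblast markers, 0 were called higher and 6 lower under EC, whereas 11 were higher and 3 lower under TGF-β. When the share of the partner library was subtracted from the counts, also a choice made after seeing the data, the 5 genes called under TGF-β stayed called. Their log2 fold changes were then 0.85 for Bgn, 1.71 for Tnc, -5.06 for Prelp and -4.48 for Tnxb, with adjusted p-values of 4.39e-05 to 0.0442, and Fmod had an adjusted p of 0.0442. Fmod, which passed the filter on low counts only through the TGF-β libraries, adds nothing to this count either. Under EC, Dcn stayed called (log2 1.38, adjusted p = 0.00972), and Bgn (log2 -0.26, adjusted p = 0.840), Ogn (log2 -1.38, adjusted p = 0.175) and Tnxb (log2 -1.11, adjusted p = 0.311) did not. Tnxb under IPFc was not called either (log2 -1.35, adjusted p = 0.392). Calls fell over all genes as well, from 1284 to 38 under EC, 81 to 3 under IPFc and 3457 to 800 under TGF-β. Smooth muscle and pericyte markers summed to 491 to 606 CPM in the TGF-β and 226 to 315 CPM in the vehicle fibroblast libraries. Their part in the results was not tested.

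**Figure D3:**
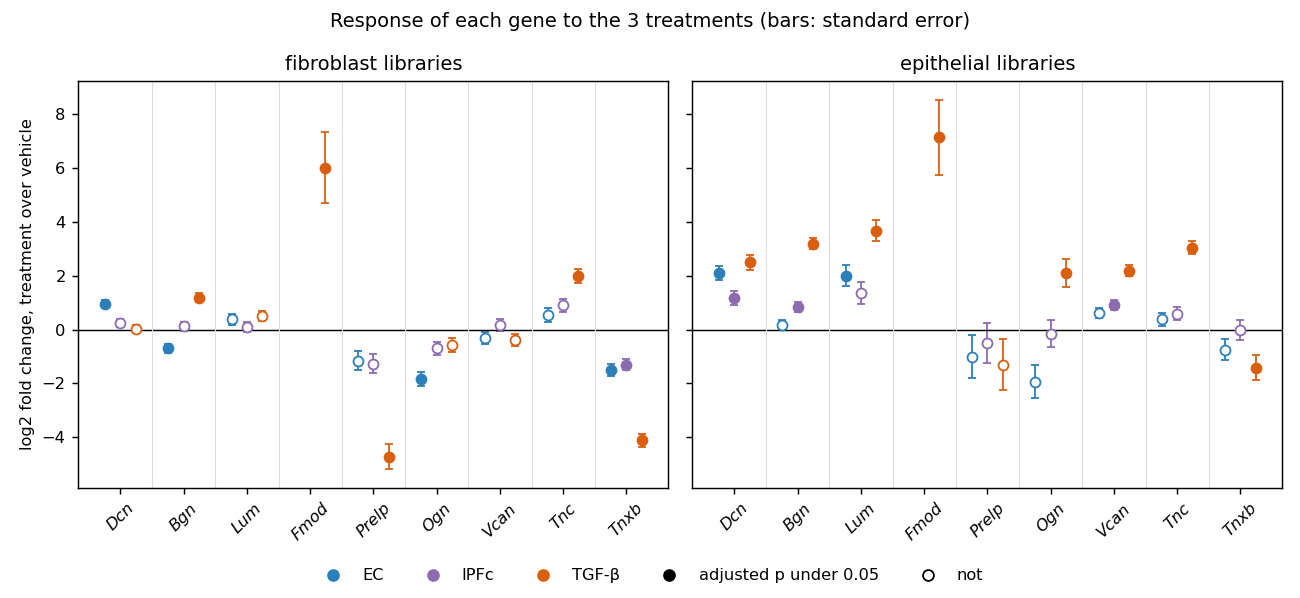
Log2 fold change of each gene against vehicle (y axis) under 3 treatments, in fibroblast libraries (left) and epithelial libraries (right), with bars of 1 standard error and filled points for an adjusted p under 0.05. In fibroblast libraries Prelp (-4.73) and Tnxb (-4.11) lie lowest under TGF-β, and the fitted values of Fmod, with no read under vehicle, are not bounds.

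The start regions of the 5 genes that TGF-β changed in fibroblast libraries are shown, from 250 bases before to 50 bases after a RefSeq transcript start, so that genes that rose and genes that fell can be read side by side. The sequences are from RefSeq (GRCm38.p6), 5′ to 3′ on the strand of the gene. Capitals mark 3 motifs searched on both strands: CAGAC, a core of SMAD binding sites, TGANTCA, the AP-1 site, and TATAAA, the TATA box. A match on the other strand reads as its complement, such as GTCTG. Of 32851 promoter regions of the same length, 49.6% held CAGAC, 7.81% held TGANTCA and 13.6% held TATAAA. The regions are Bgn at chrX:73483351-73483650 (plus strand), Fmod at chr1:134037004-134037303 (plus strand), Tnc at chr4:64046966-64047265 (minus strand), Prelp at chr1:133921352-133921651 (minus strand) and Tnxb at chr17:34670285-34670584 (plus strand).
Bgn: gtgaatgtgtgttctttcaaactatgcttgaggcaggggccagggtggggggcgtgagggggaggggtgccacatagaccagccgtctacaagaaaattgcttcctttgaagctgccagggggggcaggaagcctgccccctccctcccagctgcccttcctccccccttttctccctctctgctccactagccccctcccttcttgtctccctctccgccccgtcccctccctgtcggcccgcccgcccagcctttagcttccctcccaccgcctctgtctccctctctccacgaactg
Fmod: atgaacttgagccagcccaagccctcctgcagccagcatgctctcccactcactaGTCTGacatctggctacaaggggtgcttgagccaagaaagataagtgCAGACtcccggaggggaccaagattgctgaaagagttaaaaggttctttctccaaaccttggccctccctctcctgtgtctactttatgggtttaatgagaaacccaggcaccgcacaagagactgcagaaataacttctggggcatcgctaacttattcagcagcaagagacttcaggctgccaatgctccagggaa
Tnc: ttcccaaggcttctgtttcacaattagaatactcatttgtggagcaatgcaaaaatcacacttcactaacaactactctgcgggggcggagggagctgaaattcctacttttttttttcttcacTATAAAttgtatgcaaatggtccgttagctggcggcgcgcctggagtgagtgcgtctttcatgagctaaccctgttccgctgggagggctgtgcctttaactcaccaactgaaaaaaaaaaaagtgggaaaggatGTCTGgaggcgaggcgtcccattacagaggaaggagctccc
Prelp: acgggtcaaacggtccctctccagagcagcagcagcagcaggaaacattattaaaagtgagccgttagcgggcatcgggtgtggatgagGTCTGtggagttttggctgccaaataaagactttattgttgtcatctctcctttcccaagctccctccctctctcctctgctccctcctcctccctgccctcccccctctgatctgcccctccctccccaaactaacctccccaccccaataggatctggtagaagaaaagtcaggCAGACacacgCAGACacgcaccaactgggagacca
Tnxb: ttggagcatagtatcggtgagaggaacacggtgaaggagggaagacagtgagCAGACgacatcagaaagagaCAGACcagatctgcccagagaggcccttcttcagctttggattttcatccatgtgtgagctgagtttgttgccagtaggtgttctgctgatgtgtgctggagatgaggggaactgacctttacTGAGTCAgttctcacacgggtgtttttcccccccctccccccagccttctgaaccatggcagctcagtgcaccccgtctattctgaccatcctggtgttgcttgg

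Counted from the transcript start as 1, CAGAC began at -195 and -148 in Fmod, at 10 in Tnc, at -161, 16 and 26 in Prelp and at -198 and -178 in Tnxb. TATAAA began at -126 in Tnc, and the AP-1 letters began at -55 in Tnxb. Bgn held no match. CAGAC thus stood in genes of both directions, and it stood in 49.6% of all promoter regions. The regions of Prelp and Tnxb belong to transcripts that start 8701 and 10082 bases inside the annotated gene. Tnc had a second entry that starts 79 bases further downstream.

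The wider families of the matrix were read from lists written for this purpose, with members of the group left out. Beside their counts in fibroblast libraries, 7.11% of all genes tested were called under EC, 0.449% under IPFc and 19.2% under TGF-β. Among 7 tested further leucine-rich proteoglycans and relatives, Podn (podocan) fell under EC (log2 -1.88, SE 0.41, adjusted p = 0.0109) and under TGF-β (log2 -1.25, SE 0.38, adjusted p = 0.0292), and its relative Podnl1 rose under TGF-β (log2 0.67, SE 0.19, adjusted p = 0.0169). Under IPFc 0 of the 7 were called. Of 13 other large and basement membrane proteoglycans, 0 rose and 3 fell under EC, 0 were called under IPFc, and 3 rose and 1 fell under TGF-β. Col18a1, the basement membrane collagen with heparan sulfate chains, rose under TGF-β from 673 ± 17.9 (SD, n = 3) to 1079 ± 82.8 CPM (SD, n = 4). Spock2, a testican, fell under EC and TGF-β, from 0.699 ± 0.0260 to 0.169 ± 0.263 and 0.274 ± 0.268 CPM.

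Of 14 cell surface proteoglycans, 2 rose and 3 fell under EC, 0 were called under IPFc, and 4 rose and 3 fell under TGF-β. The glypican Gpc1 was called higher under both EC (log2 0.54) and TGF-β (log2 1.5). The chondroitin sulfate proteoglycan Cspg4 rose under TGF-β (log2 1.64), whereas Tgfbr3 (betaglycan, a TGF-β co-receptor, log2 -1.56) and the syndecan Sdc4 (log2 -1.43) fell. Of 16 genes of hyaluronan synthesis, breakdown and binding, the synthase Has3 was called under EC (log2 2.69) and the synthase Has2 under TGF-β (log2 1.14), both higher, and Itih2 fell under TGF-β (log2 -1.98). Has3 (5.85 ± 1.73 against 0.799 ± 0.620 CPM) and Itih2 (78.2 ± 13.4 against 16.3 ± 5.77 CPM) stood higher in epithelial than in fibroblast vehicle libraries.

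Of 42 genes that build glycosaminoglycan chains, 3 rose and 4 fell under EC, 0 were called under IPFc, and 10 rose and 6 fell under TGF-β. The chondroitin sulfotransferase Chst11 rose under TGF-β, from 79.6 ± 17.7 to 236 ± 15.1 CPM, and the heparan sulfate polymerase gene Ext1 rose as well (log2 0.91). The heparan sulfotransferases Hs3st1 (1.46 ± 0.312 CPM under vehicle) and Hs3st3b1 (3.89 ± 2.48 CPM) were called higher under EC, at 3.92 ± 0.827 and 9.47 ± 7.43 CPM, and lower under TGF-β, at 0.0306 ± 0.0354 and 0.0831 ± 0.0603 CPM. Both were higher in the epithelial vehicle libraries (9.64 ± 3.38 and 30.2 ± 4.53 CPM, SD, n = 4), and the epithelial marker share of the fibroblast libraries moved in the same directions. Its part was not tested. Of 14 proteases and inhibitors that act on proteoglycans, 2 rose and 3 fell under EC, 1 rose under IPFc, and 4 rose and 5 fell under TGF-β. The aggrecanase Adamts4 rose under TGF-β (log2 1.67) and the aggrecanase Adamts5 fell (log2 -1.78). Timp3, a matrix-bound protease inhibitor, fell under EC (log2 -1.17), and Mmp13, a collagenase, rose under EC (log2 1.74) and IPFc (log2 1.69).

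Of 28 other matricellular glycoproteins, 0 rose and 6 fell under EC, 1 rose under IPFc, and 10 rose and 5 fell under TGF-β. Fbln5 (log2 -1.39) and Sparcl1 (log2 -1.04) fell under EC. Ccn4 (log2 2.22) and Spp1, which encodes osteopontin (log2 1.84), rose under TGF-β, where Ccn3 (log2 -2.44) and Matn4 (log2 -2.57) fell. Spp1 was also the gene that rose under IPFc (log2 1.09). Of 20 receptors and ligands that bind these proteins, 5 rose and 2 fell under EC, 1 rose under IPFc, and 5 rose and 8 fell under TGF-β. Itgb3, an integrin subunit, rose under IPFc (log2 1.39) and TGF-β (log2 3.65). Cd14, a co-receptor through which biglycan signals, rose under EC (log2 1.82) and fell under TGF-β (log2 -2.34), and stood higher in epithelial than in fibroblast vehicle libraries (253 ± 23.9 against 50.4 ± 11.5 CPM). Of the 43 genes of these lists that the naming rule chose in fibroblast libraries, 12 had a higher mean in epithelial vehicle libraries. Of these 12, 11 moved with the epithelial marker share under EC or TGF-β, higher under EC or lower under TGF-β: Sdc1, Gpc1 (under EC), Sdc4, Has3, Itih2, Hs3st1, Hs3st3b1, Matn4, Cd14, Itga2 and Itga9. The other named genes had a higher mean in fibroblast vehicle libraries, and many of them moved opposite to that share. Examples are Timp3, Mmp2, Fbln5 and Sparcl1, lower under EC, and Col18a1, Chst11 and Ccn4, higher under TGF-β. Others moved with it, such as Mmp13, higher under EC, and Tgfbr3 and Adamts5, lower under TGF-β. The part of the epithelial share in the changes of any of the named genes was not tested. The median log2 fold changes of these lists under TGF-β ran from -0.10 to 0.17, beside -0.02 over all genes.

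The treatments were also set against each other. In fibroblast libraries EC and IPFc differed in 3 of 9 genes, against 10.4% of all genes. Dcn was higher under EC (log2 0.70, SE 0.13, adjusted p = 0.00289), and Bgn (log2 -0.81, SE 0.15, adjusted p = 0.00269) and Ogn (log2 -1.14, SE 0.25, adjusted p = 0.00688) were lower. EC and TGF-β differed in 7 of 9 genes, against 35.4% of all genes. Dcn (log2 0.91), Prelp (3.57) and Tnxb (2.60) were higher under EC, and Bgn (-1.88), Ogn (-1.25), Tnc (-1.45) and Fmod were lower. IPFc and TGF-β differed in 5 of 9 genes, against 17.4% of all genes, although TGF-β was part of both. Prelp (log2 3.47) and Tnxb (2.81) were higher under IPFc, and Bgn (-1.06), Tnc (-1.09) and Fmod were lower. Fmod passed the filter on low counts only through the TGF-β libraries, so it adds nothing to either count against TGF-β. After subtraction of the partner share, called genes numbered 1, 4 and 3 in these comparisons. The share of all genes called after subtraction is not given for them, so these counts are not a result about the group.

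In fibroblast libraries the genes also varied with each other and with the rest of the transcriptome. As a description, log2 CPM after removal of each mouse's mean was compared over the 15 libraries, which share 4 treatment groups and differ in depth. Prelp and Tnxb ran together (Pearson r = 0.94), as did Bgn and Tnc (r = 0.82), whereas Dcn ran against Bgn (r = -0.83) and Ogn (r = -0.85). The neighbours Dcn and Lum reached r = 0.43. Of 18048 genes, those most like Bgn were Chpf2, Arhgef40 and Axl (r = 0.990 to 0.991), and those most like Tnxb were Col6a2, Col6a1 and Aqp1 (r = 0.988 to 0.991). Prelp was most like Col4a6, Trabd2b and Nckap5, Tnc most like Cers6, Specc1 and Elk4, Vcan most like Il6st, Scaper and Slc8a1, Fmod most like Epha3, Fermt2 and Gm38451, Ogn most like Fam172a, Ids and Cd109, Dcn most like Pgk1, Coa6 and Eif2b5, and Lum most like Trappc4, Yaf2 and Vps29.

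The fractions were compared within cultures. Under vehicle 8 of 9 tested genes were higher in fibroblast than in epithelial libraries of the same culture. Of all 18364 genes tested, 4342 were called higher there, and 47.1% were called in either direction. The list named matrix genes of fibroblasts with earlier results of these data known, so the direction itself is no test. The log2 difference ran from 2.63 for Tnc (SE 0.39) to 4.40 for Lum (SE 0.42), with 4.35 for Dcn and 3.97 for Bgn. The same 8 genes were higher under EC (log2 2.42 to 3.77) and under IPFc (log2 2.65 to 3.5). Of the 18364 genes, 3971 were called higher under EC (41.9% in either direction) and 4761 under IPFc (52.2% in either direction). Under TGF-β 6 of 9 were higher in fibroblast libraries, and the log2 differences were 1.20 for Tnc to 2.24 for Bgn. Of the 18364 genes, 3319 were called higher there and 39.8% in either direction. The call of Tnc was lost without mouse 2 (adjusted p = 0.0608). Ogn (adjusted p = 0.0539), Prelp (adjusted p = 0.450) and Fmod (adjusted p = 0.241) did not pass there.

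In epithelial libraries TGF-β changed 8 of 9 genes, against 41.1% of all genes. Of these 7 rose and Tnxb fell. The 7 include Fmod, which passed the filter on low counts only through the TGF-β libraries and adds nothing to the count. EC changed 2 of 9, against 4.41% of all genes, and IPFc 3 of 9, against 4.1% of all genes. Each change under EC and IPFc was an increase. The median log2 fold change of the 8 genes other than Fmod was 0.28 under EC, 0.71 under IPFc and 2.34 under TGF-β, beside 0.00, 0.01 and 0.03 over all genes. Fibroblast markers moved in the same way. Of 20 tested, 1 was higher and 1 lower under EC (median log2 0.31), 11 were higher under IPFc (median log2 0.73) and 18 were higher under TGF-β (median log2 2.86). Smooth muscle and pericyte markers were called higher in 7 of 8 under TGF-β (median log2 3.34, sums of 151 to 161 CPM against 22.6 to 42 CPM), and epithelial markers were called lower in 16 of 21 and higher in 3 (median log2 -0.96). The part of these shifts in the results was not tested.

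Bgn measured 195, 118, 103 and 124 CPM in the epithelial vehicle libraries and 989, 971 and 1094 CPM under TGF-β, a log2 fold change of 3.19 (SE 0.21, adjusted p = 1.91e-10). The groups were far apart. Dcn measured 9.66, 7.46, 6.46 and 6.70 CPM under vehicle, 29.4, 39.9, 17.4 and 47.6 CPM under EC, 20.3, 28.4, 9.24 and 13.1 CPM under IPFc and 34.9, 44.4 and 38.3 CPM under TGF-β. Its EC and TGF-β libraries all lay above vehicle, and its IPFc library of mouse 3 fell within the vehicle range. Dcn rose by log2 2.09 (SE 0.26, adjusted p = 1.94e-05) under EC, 1.16 (SE 0.26, adjusted p = 0.0109) under IPFc and 2.5 (SE 0.28, adjusted p = 3.10e-07) under TGF-β.

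Lum measured 1.30, 0.243, 0.359 and 0.849 CPM under vehicle and 7.61, 7.35 and 8.97 CPM under TGF-β (log2 3.67, SE 0.40, adjusted p = 2.66e-07). Under EC, at 2.56, 3.55, 1.13 and 4.20 CPM, it was also called (log2 2.00, SE 0.39, adjusted p = 0.00303). The TGF-β libraries were clear of vehicle, and the EC library of mouse 3 was not. Fmod had no read in the 4 vehicle libraries, which allows up to 0.0515 CPM over the group, and 30, 24 and 4 reads under TGF-β, or 1.46, 1.84 and 0.454 CPM. Its mean was at least 24.3-fold higher (adjusted p = 0.000762), and DESeq2 did not call it (adjusted p = 0.264). The TGF-β libraries held 58 of its 59 epithelial reads and alone carried it past the filter on low counts, and without Fmod 7 of 8 genes were called. Ogn measured 1.44, 0.487, 0.667 and 1.61 CPM under vehicle and 3.81, 5.59 and 2.84 CPM under TGF-β, which lay above all vehicle libraries (log2 2.10, SE 0.52, adjusted p = 0.00261). Without mouse 3 the adjusted p of Ogn was 0.0663.

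Vcan measured 56.8, 34.7, 26.7 and 38.4 CPM under vehicle and 130, 153 and 157 CPM under TGF-β (log2 2.17, SE 0.20, adjusted p = 3.15e-08). Tnc measured 6.24, 11.4, 10.4 and 2.72 CPM under vehicle and 53.3, 78.2 and 51.3 CPM under TGF-β (log2 3.04, SE 0.26, adjusted p = 6.93e-09). For both genes every TGF-β library stood above every vehicle library. Tnxb measured 3.98, 1.87, 2.21 and 1.44 CPM under vehicle and 0.635, 1.15 and 0.568 CPM under TGF-β, below all vehicle libraries (log2 -1.41, SE 0.47, adjusted p = 0.0199). The call of Tnxb was lost without mouse 1 (adjusted p = 0.0598) and without mouse 2 (adjusted p = 0.0916). Prelp stayed at or below 0.933 CPM in all epithelial libraries and was not called. Under IPFc, Bgn (367, 365, 110 and 189 CPM, log2 0.83, SE 0.18, adjusted p = 0.0109) and Vcan (94.1, 109, 33.7 and 67.9 CPM, log2 0.91, SE 0.19, adjusted p = 0.00555) were called, with the libraries of mice 3 and 4 within the vehicle range for Bgn and that of mouse 3 for Vcan. Without mouse 2 the adjusted p under IPFc was 0.138 for Dcn and 0.0651 for Bgn, and without mouse 1 it was 0.0713 for Bgn. Without the block by mouse, Dcn (adjusted p = 0.0512), Bgn (adjusted p = 0.195) and Vcan (adjusted p = 0.133) were not called under IPFc.

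The ratio of a gene between the 2 libraries of a culture was set beside the same ratio of the fibroblast markers. Under TGF-β the markers stood at 24.1 to 29.2%. Bgn stood at 19.3 to 23.9%, below the markers in each of the 3 cultures, and Dcn at 21.3 to 26.4%, around them. Tnc stood at 38.1 to 51.1%, Ogn at 37.5 to 79.7% and Lum at 26.5 to 42.1%, above the markers in 3 of 3 cultures each. Fmod stood at 183 and 370% in the 2 cultures with more than 3 fibroblast reads, so that its CPM was higher in the epithelial library. Tnc also lay above the markers in 3 of 3 vehicle, 3 of 4 EC and 4 of 4 IPFc cultures. When the share of the fibroblast partner was subtracted from the epithelial counts, Lum (log2 5.92, adjusted p = 0.0336), Tnc (log2 3.07, adjusted p = 0.00314) and Fmod (adjusted p = 0.00950) remained called higher under TGF-β. Dcn (log2 6.03, adjusted p = 0.170), Ogn (log2 3.05, adjusted p = 0.148) and Vcan (log2 3.98, adjusted p = 0.152) were not called, with log2 fold changes above those without subtraction, Bgn changed sign (log2 -7.88, adjusted p = 0.0488) and Tnxb had a log2 fold change of 1.70 (adjusted p = 0.521). The Bgn value came from counts that the subtraction had taken to 0. Vehicle counts of a gene below the markers were also taken to 0. In the 3 vehicle cultures Dcn stood at 0.631 to 0.971 of the marker ratio and Lum at 0.386 to 1.14. Bgn stood at 0.953 to 1.06, Tnxb at 0.526 to 1.06 and Vcan at 0.762 to 1.26. Subtracted fold changes of Dcn, Lum, Bgn, Tnxb and Vcan, under any treatment, therefore rest on largely emptied vehicle libraries. They give no size of a response. Over all genes, subtraction lowered the calls from 794 to 330 under EC, 739 to 170 under IPFc and 7400 to 4665 under TGF-β. Under EC and IPFc 0 of 9 genes were called after subtraction. The log2 fold changes were then 9.57 for Dcn (adjusted p = 0.212) and 4.34 for Lum (adjusted p = 0.428) under EC, and 4.79 for Dcn (adjusted p = 0.843), 1.89 for Bgn (adjusted p = 0.717) and 0.20 for Vcan (adjusted p = 1) under IPFc, so that of these 5 values the one for Vcan was smaller than without subtraction. Both EC calls were kept in the other 12 of 13 alternatives.

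**Figure D4:**
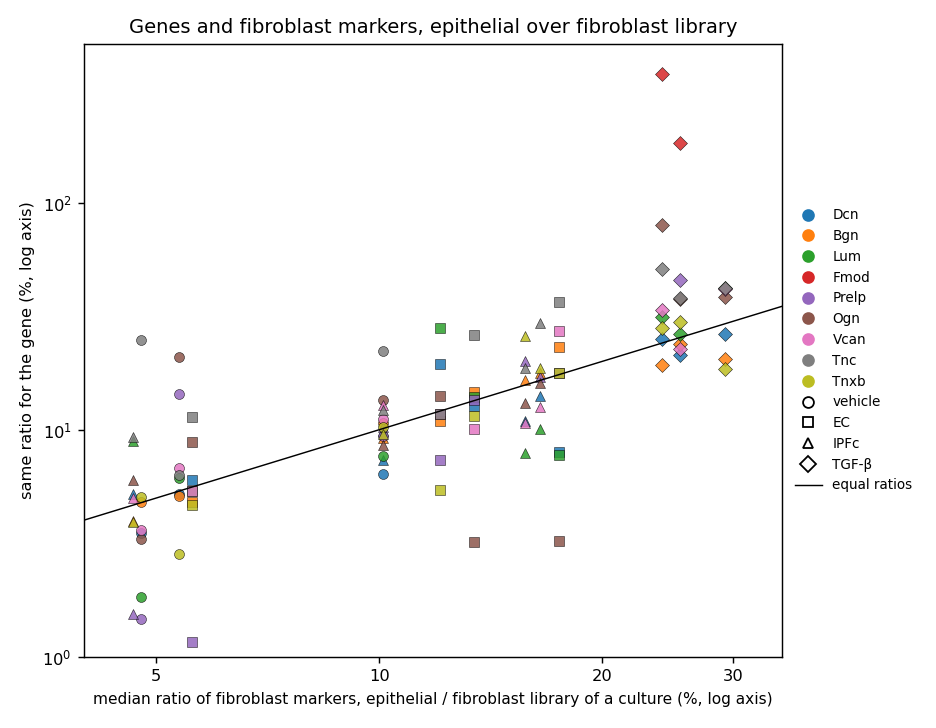
Ratio of epithelial to fibroblast CPM within a culture for each gene (y axis, percent, log scale) against the median of the same ratio over fibroblast markers (x axis, percent, log scale), with a line at equal ratios and a symbol for each treatment. Most points follow the line, and Fmod under TGF-β lies farthest above it at 183 and 370%.

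The wider families moved in the epithelial libraries as well, beside the fibroblast marker share given above, whose part was not tested. Of all genes tested there, 4.41% were called under EC, 4.1% under IPFc and 41.1% under TGF-β. Under TGF-β, 12 of 14 cell surface proteoglycans rose and 0 fell, 23 of 45 glycosaminoglycan synthesis genes rose and 4 fell, and 19 of 28 matricellular genes rose and 1 fell. Among them, Cspg4 rose by log2 3.40, Chst11 by 3.54 and Ccn4 by 4.6. Of 13 hyaluronan genes, 7 rose, Has2 (log2 2.89) included, and 4 fell, Has3 (log2 -1.66) included. Under EC the same Has3 rose (log2 2.05), as did Adamts4 (log2 2.39). Under IPFc, 6 of 28 matricellular genes rose and 1 fell, with Spp1 at log2 1.81 and Fn1, which encodes fibronectin, at 1.11.

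The treatments were compared with each other in epithelial libraries too. EC and TGF-β differed in 6 of 9 genes, against 43.1% of all genes. Bgn (log2 -3.01), Lum (-1.67), Ogn (-4.03), Vcan (-1.56), Tnc (-2.67) and Fmod were lower under EC. IPFc and TGF-β differed in 8 of 9 genes, against 37.2% of all genes, with Dcn (log2 -1.34), Bgn (-2.36), Lum (-2.31), Ogn (-2.24), Vcan (-1.27), Tnc (-2.45) and Fmod lower and Tnxb (1.38) higher under IPFc. Here too Fmod passed the filter on low counts only through the TGF-β libraries, so it adds nothing to either count against TGF-β. The call of Tnxb was lost without mouse 2 (adjusted p = 0.264) and without mouse 4 (adjusted p = 0.0659). EC and IPFc differed in 1 of 9, against 4.17% of all genes, which was Dcn (log2 0.93, adjusted p = 0.0277). Its adjusted p was 0.244 without mouse 4 and 0.0831 with DESeq2.

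Whether a gene responded differently in the 2 fractions was tested as an interaction over all 30 libraries. Under TGF-β 6 of 9 genes differed, against 13.4% of all genes, and the log2 response of each was lower in fibroblast than in epithelial libraries. The differences were -2.30 for Dcn (SE 0.40, adjusted p = 0.00102), -1.73 for Bgn (SE 0.54, adjusted p = 0.0416), -2.78 for Lum (SE 0.54, adjusted p = 0.00210), -2.29 for Ogn (SE 0.61, adjusted p = 0.0176), -2.28 for Vcan (SE 0.51, adjusted p = 0.00580) and -2.23 for Tnxb (SE 0.71, adjusted p = 0.0465) on the log2 scale, beside a median of -0.21 over all genes. Leaving out mouse 2, 3 or 4 ended the call of Tnxb (adjusted p = 0.154 to 0.187) and Bgn (adjusted p = 0.0551 to 0.206). The call of Ogn ended without mouse 3 (adjusted p = 0.376) and that of Vcan without mouse 4 (adjusted p = 0.0650). The fibroblast marker share of the epithelial libraries rose under TGF-β as given above, and its part in these differences was not tested. For EC (0.0163% of all genes called) and IPFc (0.0218% of all genes called), 0 of 9 genes differed between fractions with edgeR or DESeq2. At an unadjusted p under 0.05, 1516 and 532 of all genes differed.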

How the data were processed

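The files held raw read counts of 55487 Ensembl genes, which the authors deposited per library. Directional libraries were sequenced and trimmed with Trimmomatic 0.30, and the study's own test was a paired DESeq2 1.34.0 analysis. The study's methods name GRCm38.p6 and the submitters' processing notes name GRCm39, and the aligner and counter are not given in the sources used here. Here, counts were normalised with TMM and tested in edgeR 4.0.16 (R 4.3.3, limma 3.58.1) by the quasi-likelihood test, two-sided, with Benjamini-Hochberg adjustment. A gene entered a fit where its raw count averaged 1 or more. One fit per fraction (15 libraries, 18048 fibroblast and 18024 epithelial genes) held treatment and mouse, and one fit of 30 libraries (18364 genes) held the culture as a block. Replicate numbers name the same mouse in the labels. Deviations from group means correlated by 0.176 on average between fibroblast libraries of the same mouse (-0.0581 between mice) and by 0.147 between epithelial ones (-0.0485 between mice). The fibroblast TGF-β contrast and the contrast between fractions were first tested on simulated data in which 200 genes had known fold changes. These were drawn from genes with higher counts, so the simulation does not cover genes with few reads such as Fmod. CPM used TMM factors over all libraries, and levels per kilobase used Ensembl canonical transcripts of GENCODE, while coordinates are RefSeq GRCm38.p6. No molecular identifiers were used, so count floors (3 counts) cover counting error only. The 10 genes, the wider lists and the markers were chosen with earlier results of these data known. From each wider list, no more than the 2 called genes with the lowest adjusted p in either direction were named per comparison with vehicle, and for each of the 10 genes the 3 genes with the highest correlation were named. The share of the other fraction was the median, over markers of at least 50 CPM in the partner library, of the CPM ratio between the libraries of a culture. Alternatives were DESeq2 1.42.0, its size factors, other filters, robust estimation, no block, the title suffix as covariate, fits of 2 treatments and leaving out each mouse.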

Additional observations from a re-analysis of the deposited data

Results flagged for a closer look

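In the epithelial EC libraries, Tnxb of mouse 2 measured 2.51 CPM, apart from the other 3 libraries at 0.976 to 1.21 CPM, with a gap of 0.850 of the group's range. It was the single such value among 49 groups of 4 libraries tested, and chance gives about 5% of groups. Under TGF-β, 6 genes responded differently in the fractions by the interaction term of the edgeR fit, each with a lower log2 response in fibroblast libraries. The differences were -2.30 for Dcn (adjusted p = 0.00102), -1.73 for Bgn (adjusted p = 0.0416), -2.78 for Lum (adjusted p = 0.00210), -2.29 for Ogn (adjusted p = 0.0176), -2.28 for Vcan (adjusted p = 0.00580) and -2.23 for Tnxb (adjusted p = 0.0465). In the same epithelial libraries the median fibroblast marker stood at 24.1 to 29.2% of its fibroblast level, against 4.77 to 10.1% under vehicle, and its part was not tested.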

How the results depend on the processing

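Of 882 alternative values for the 89 called values, 815 kept direction and call, 63 lost the call and 4 changed sign. Subtraction of the other fraction's share gave 53 of the 882, and of these 23 kept both, 26 lost the call and 4 changed sign. It was not run for comparisons between fractions. Of 210 for the 15 fibroblast values not called, 183 kept both, 22 became called and 5 changed sign. The cause of these changes was not tested.

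Without the block by mouse, called genes of the group numbered 0 under fibroblast IPFc, 0 under epithelial IPFc and 0 for epithelial EC against IPFc. Over all genes the unpaired fit called 321 under fibroblast EC (1284 with the block), 35 under fibroblast IPFc (81), 391 under epithelial EC (794) and 297 under epithelial IPFc (739).

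Without the filter on low counts, 3 genes of the group were called under fibroblast IPFc, 4 under epithelial EC, 5 under epithelial IPFc, 3 for epithelial EC against IPFc and 2 for the fraction difference under EC. All genes called were then 2048 (fibroblast EC), 251 (fibroblast IPFc), 1172 (epithelial EC) and 1118 (epithelial IPFc). For epithelial EC against IPFc and for the fraction difference under EC that number is not given. The counts there are thus not a result about the group. DESeq2 gave 180 genes under fibroblast IPFc and 0 of the group for epithelial EC against IPFc. Robust estimation gave 0 of the group under epithelial IPFc, beside 714 of all genes. The title suffix as covariate gave 537 genes under fibroblast EC and 44 under IPFc, and the fit of only 2 treatments gave 229 genes and 3 of the group under fibroblast IPFc.

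Leaving out 1 library and, except in epithelial libraries against vehicle, subtracting the other fraction were chosen after seeing the data. Without fibroblast EC replicate 1, 1983 genes were called under fibroblast EC, 5005 under TGF-β and 263 under IPFc, 3 of the group included. With the other fraction's share subtracted, called genes of the group numbered 1 under fibroblast EC, 0 under IPFc, 1 for EC against IPFc, 4 for EC against TGF-β and 3 for IPFc against TGF-β. In epithelial libraries they numbered 0 under EC, 0 under IPFc, 4 under TGF-β, 0 for EC against IPFc and 4 for IPFc against TGF-β. Against vehicle, all genes called were 38, 3 and 800 in fibroblast libraries (EC, IPFc, TGF-β) and 330, 170 and 4665 in epithelial ones. Between treatments the number over all genes is not given, so those counts are not a result about the group. Fmod adds nothing to the counts that involve TGF-β. Signs changed for Vcan under fibroblast EC (log2 0.14), Dcn under fibroblast TGF-β (-0.29), Bgn (-7.88) and Tnxb (1.70) under epithelial TGF-β, and Bgn for epithelial EC (9.97) and IPFc (9.77) against TGF-β. The subtraction takes Bgn counts of the epithelial TGF-β libraries to 0.

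Leaving out each mouse in turn gave 3 to 6 called genes of the group under fibroblast EC, 0 to 3 under IPFc and 5 to 7 under TGF-β, 3 to 3 for EC against IPFc, 7 to 9 for EC against TGF-β and 5 to 7 for IPFc against TGF-β. In epithelial libraries the ranges were 2 to 3, 1 to 3 and 7 to 8 against vehicle and 0 to 2, 6 to 6 and 7 to 8 between treatments. Between fractions they were 8 to 8 under vehicle, EC and IPFc, 5 to 7 under TGF-β, and 3 to 6 for the difference in TGF-β response. All genes called ranged over 217 to 2053, 14 to 128 and 2148 to 4089 in fibroblast libraries and over 421 to 727, 352 to 801 and 5752 to 6941 in epithelial ones. Signs changed for fibroblast Lum under IPFc (log2 -0.00996 without mouse 4, up to 0.26 without mouse 3), Vcan under IPFc (-0.11 without mouse 1, up to 0.32) and Dcn under TGF-β (-0.054 without mouse 4, up to 0.11). Depth limits Fmod, Prelp under TGF-β and Aspn, which rest on few reads.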
